A study of Mus musculus with 26 samples.

Results

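Wild-type MC38/gp100 cells treated with MRTX1719 were compared with the same cells treated with GSK3326595, across all genes. MC38/gp100 cells are labelled as mouse colon adenocarcinoma cells, and gp100 is a melanoma antigen. The comparison used 5 of the 26 libraries of the series, chosen by their labels: replicates 1 and 3 with MRTX1719 (n = 2) and replicates 1 to 3 with GSK3326595 (n = 3). Both compounds were given at 0.5 uM for 5 days to the line labelled WT, in vitro in RPMI medium with serum. The treatment field of the labels ends in another digit for GSK3326595 in replicates 2 and 3 (GSK3326596 and GSK3326597), while the titles give GSK3326595 for all 3, so they were taken as the same compound. The 3 wild-type DMSO libraries gave the level without inhibitor. An MC38/gp100 line labelled Mtap knockout (KO), with 3 libraries for each compound at the same dose and time, gave the same contrast in other cells. The labels do not say whether it is a single clone. This line also had 3 DMSO libraries, and all 17 MC38 libraries shared a single fit. The labels number the libraries without stating separate cultures, so the spread behind each p-value is that between libraries and could be technical.

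PRMT5 is the main enzyme that places symmetric dimethyl marks on arginines, among them those of the Sm proteins of the spliceosome and of histones. Methylthioadenosine (MTA), a by-product of polyamine synthesis, binds PRMT5 in the place of its methyl donor S-adenosylmethionine, and Mtap encodes the phosphorylase that clears MTA. MRTX1719 binds PRMT5 together with MTA, so it is known to act mainly on cells that lack Mtap and accumulate MTA. GSK3326595 inhibits PRMT5 without needing MTA. In wild-type cells, which clear MTA, the design thus sets an MTA-cooperative inhibitor beside an inhibitor that is not, at matched dose and time.

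Library totals were 25863060 to 26998358 counts with GSK3326595, 26054375 and 26082660 with MRTX1719, and 22755637 to 26160274 with DMSO. Between 21480 and 21790 genes had a count with GSK3326595, against 20706 and 20757 with MRTX1719 and 20194 to 20580 with DMSO. Replicates of these groups differed by more than sampling noise (chi-square per gene 1.46 to 1.76). The labelled cell type was only partly borne out by markers. Epcam, an epithelial adhesion molecule, had 0 counts in all 8 wild-type libraries, which allows up to 0.0146 CPM, and Cdh1, the epithelial cadherin, was under 1 CPM in each. The summed level of 21 epithelial markers was 371 to 377 CPM with GSK3326595, 364 to 375 with MRTX1719 and 361 to 371 with DMSO. Only 11 of these 21 were high enough to be tested. Markers with 0 counts in every library of a group numbered 1 with GSK3326595, 5 with MRTX1719 and 4 with DMSO. Leukocyte markers summed to 22.1 to 26.2 CPM. Fibroblast and endothelial markers summed to 2250 to 2260 CPM with GSK3326595, 2000 to 2010 with MRTX1719 and 2170 to 2200 with DMSO. Whether other cells had a part in the results was not tested, and in bulk RNA fewer cells of a type and less RNA per cell cannot be told apart.

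Of 14835 genes tested, 4454 differed between the inhibitors at an adjusted p under 0.05. With MRTX1719, 2283 (15.4%) were higher and 2171 (14.6%) lower than with GSK3326595. These 2 shares are the background for the counts per gene list given here, but calls grew more frequent with level. Among 6859 genes at 10 to 100 CPM, 1328 were higher and 1178 lower, and among 2360 at 100 CPM or more, 684 and 608. Lists of abundant genes are to be read beside those counts. The inhibitors' libraries did not overlap in 7870 of all genes tested and in 4400 of the 4454 called. Lack of overlap was a condition for naming most genes, so it is no separate result for them. Most differences were small, with a median absolute log2 fold change of 0.19 among the changed genes, and 174 genes (1.17%) differed at least 2-fold, 44 higher and 130 lower with MRTX1719. More genes had a count in the GSK3326595 libraries, as given above, and the part of this in the split was not tested. Of those 174, 124 lay under 1 CPM, 45 between 1 and 10 CPM, 5 between 10 and 100 CPM and 0 above. Among genes at 100 CPM or more, 54.7% of 2360 changed, with a median absolute log2 fold change of 0.134. Among genes under 1 CPM, 5.45% of 2842 did, with a median of 1.33. The count of changed genes was 3044 when MRTX1719 replicate 1 was left out and 3143 when replicate 3 was, with the spread of the remaining library taken from the other groups. The count of at least 2-fold changes was 89 with DESeq2's Wald test and 26 among genes with at least 5 CPM in at least 2 libraries.

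**Figure D1:**
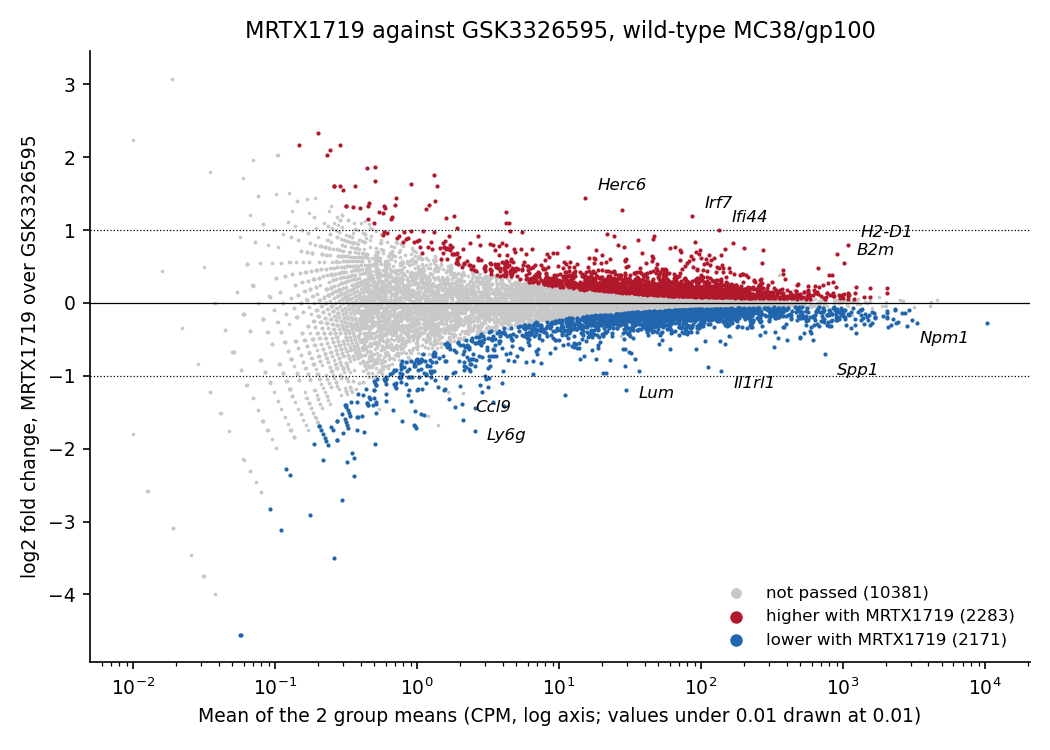
Each point is a gene. The horizontal axis gives the mean of the group means in CPM on a log axis and the vertical axis the log2 fold change of MRTX1719 over GSK3326595. Red points were higher with MRTX1719 (2283), blue points lower (2171) and grey points did not pass the test, and dotted lines mark 2-fold. Irf7, Herc6 and the class I gene H2-D1 stand out above, Spp1, Il1rl1 and Lum below, and nearly all points beyond 2-fold lie at low levels.

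No difference was detected in the RNA of the target itself. Prmt5 stood at 153, 159.7 and 155 CPM with GSK3326595 and at 154 and 155 CPM with MRTX1719. The groups overlapped, and the log2 fold change was -0.01 ± 0.030 (SE; 95% interval -0.07 to 0.05; adjusted p = 0.840, edgeR quasi-likelihood test). Wdr77, the partner that PRMT5 needs for activity, had an interval of -0.17 to 0.06 (adjusted p = 0.501). Here and in what follows the value after ± is the standard error of a log2 fold change, and adjusted p-values are from the same edgeR fit. Of 16 genes of the PRMT5 complex and the Sm and Lsm proteins that it methylates or assembles, 0 were higher and 5 lower with MRTX1719, with a median log2 fold change of -0.0540 beside -0.000314 over all genes tested. The count fell to 3 without GSK3326595 replicate 3 or without MRTX1719 replicate 3. Snrpd2, an Sm core protein, was at 83.5, 79.5 and 86.6 CPM with GSK3326595 and 70.6 and 68.6 CPM with MRTX1719. Its groups did not overlap (log2 fold change -0.26 ± 0.038, adjusted p = 8.8e-09). Snrpg, another Sm core protein, differed by -0.18 ± 0.039 in the same direction (adjusted p = 5.03e-05). Among 8 arginine methyltransferases, 0 were higher and 2 lower, Prmt6 (-0.23 ± 0.064) and Prmt3 (-0.13 ± 0.042). Prmt3 did not pass without MRTX1719 replicate 1.

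The methionine cycle supplies the methyl donor and recycles MTA. Of its 19 tested genes 2 were higher and 7 lower with MRTX1719, and 4 were lower without MRTX1719 replicate 1 or without replicate 3. The 2 higher became 0 without MRTX1719 replicate 1, and 1 without GSK3326595 replicate 1 or 3 or with no filter on low counts. Mtap read 417, 421 and 418 CPM with GSK3326595 and 399.6 and 399 CPM with MRTX1719. That is a log2 fold change of -0.07 ± 0.024 (adjusted p = 0.0186), which no longer passed with no filter on low counts, without GSK3326595 replicate 2 or without either MRTX1719 library. Mat2a, which makes S-adenosylmethionine and whose transcript is spliced in response to it, was slightly higher (0.07 ± 0.026, adjusted p = 0.0318), a call also lost with no such filter and without GSK3326595 replicate 1 or 3 or MRTX1719 replicate 1. Cth, the cystathionine lyase that turns the homocysteine branch into cysteine, differed most. It was at 90.6, 90.6 and 90.7 CPM with GSK3326595 and 66.6 and 68.2 CPM with MRTX1719, with no overlap (log2 fold change -0.43 ± 0.038, adjusted p = 3.06e-19). Ahcy, the hydrolase of S-adenosylhomocysteine, was lower by a smaller margin (-0.18 ± 0.031, adjusted p = 6.49e-07). In polyamine metabolism, 1 of 14 genes was higher (2 without MRTX1719 replicate 1) and 3 were lower, among them the acetyltransferase gene Sat1 (-0.23 ± 0.033) and the spermine synthase gene Sms (-0.21 ± 0.034).

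Interferon-stimulated genes were mostly higher with MRTX1719 than with GSK3326595. Type I interferon signals through receptors to a complex of transcription factors that holds IRF9 and drives effector genes, among them Irf7, a factor that in turn amplifies interferon genes. Of 19 genes for interferon factors and receptors, 8 were higher and 2 lower, with a median log2 fold change of 0.0645. Irf7 read 51.4, 51.4 and 54.1 CPM in the GSK3326595 libraries and 119 and 119.7 CPM in the MRTX1719 libraries, beside 116, 118 and 117 CPM with DMSO. Both MRTX1719 libraries were more than 2-fold above every GSK3326595 library and just above the DMSO libraries. The fold was 2.28, a log2 fold change of 1.19 ± 0.036 (adjusted p = 2.87e-63). Irf9 was at 79.0, 78.1 and 79.4 CPM with GSK3326595 and at 107 and 109 CPM with MRTX1719 (log2 fold change 0.45 ± 0.034, adjusted p = 5.01e-24). With DMSO it lay between, at 101, 97.5 and 99.2 CPM. Usp18, a protease that removes ISG15 and dampens the receptor, was higher too (0.54 ± 0.037). The lower pair was Ifngr1, a chain of the interferon gamma receptor (-0.31 ± 0.034), and Socs3, an inhibitor of cytokine signalling (-0.33 ± 0.048), both named after their values were seen.

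Of 44 interferon effectors tested, 41 were higher with MRTX1719, 0 were lower and 3 did not pass (Epsti1, Isg20 and Mx1), with a median log2 fold change of 0.485. Herc6, the ligase that attaches ISG15 in mice, was at 8.35, 8.93 and 7.38 CPM with GSK3326595 and at 22.4 and 22.2 CPM with MRTX1719. The 2 groups were far apart, and the MRTX1719 libraries lay just below the DMSO libraries at 22.97, 22.8 and 23.5 CPM (log2 fold change over GSK3326595 1.44 ± 0.081, adjusted p = 1.14e-34). Ifi44, an interferon-induced cytoplasmic protein, read 89.5, 90.4 and 88.2 CPM with GSK3326595 and 179 and 178 CPM with MRTX1719, which is 1.998-fold (adjusted p = 1e-60). It was also above the DMSO libraries, at 149, 149 and 147 CPM. Zbp1, a sensor of Z-form nucleic acids that can trigger necroptosis, was higher by 0.92 ± 0.047 (adjusted p = 6.18e-39). Oasl2, of the oligoadenylate synthetase family, was higher by 0.82 ± 0.029 (adjusted p = 1.84e-55), and Bst2, the tetherin that holds budding virions at the membrane, by 0.73 ± 0.026 (adjusted p = 1.11e-55). Bst2 read 203, 202 and 211 CPM with GSK3326595 against 345 and 337 CPM with MRTX1719.

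The interferon-inducible GTPases, which attack vacuoles that hold pathogens, gave 15 of 16 genes higher and 1 lower, with a median of 0.611. Tgtp1 read 3.23, 3.31 and 2.62 CPM with GSK3326595 and 5.81 and 6.24 CPM with MRTX1719 (log2 fold change 0.98 ± 0.14, adjusted p = 1.23e-09). Iigp1 was at 14.97, 15.1 and 14.8 CPM and 28.4 and 29.3 CPM in the same order (0.95 ± 0.066, adjusted p = 6.84e-27). For the guanylate-binding protein gene Gbp3 the levels were 67.9, 64.1 and 63.5 CPM and 116 and 118 CPM (0.84 ± 0.036, adjusted p = 3.15e-47). The groups were apart in each of these, as the rule for naming them required. Gvin1 (0.79 ± 0.16) did not pass without MRTX1719 replicate 3. The lower member was Gbp8 (-0.40 ± 0.16, adjusted p = 0.0484), named after its value was seen, which did not pass when any library of the comparison was left out. It was also not called with DESeq2's Wald test, with no filter on low counts, with the stricter filter or with the replicate number as a block. Gbp, Oas, Ifit and Tgtp genes have near-identical neighbours, so reads may be split between copies.

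Sensors of foreign or misplaced nucleic acid are themselves interferon-inducible, and 14 of 19 were higher with MRTX1719, 0 lower, with a median of 0.352. Ifi204, a DNA-binding protein of the PYHIN family, read 30.4, 32.5 and 34.4 CPM with GSK3326595 and 58.0 and 61.4 CPM with MRTX1719 (0.88 ± 0.053, adjusted p = 3.61e-24). Receptors of double-stranded RNA were higher too: Ifih1, which encodes MDA5, by 0.47 ± 0.035, Tlr3 by 0.55 ± 0.048, and the helicase gene Ddx60 by 0.57 ± 0.037. Cgas, which makes the second messenger cGAMP from cytosolic DNA, differed less (0.23 ± 0.051, adjusted p = 0.000120). Sting1, the receptor of cGAMP, went the other way without passing, at 52.2, 55.2 and 53.7 CPM with GSK3326595 and 49.0 and 51.0 CPM with MRTX1719 (log2 fold change -0.10 ± 0.042, 95% interval -0.19 to -0.02, adjusted p = 0.0508). It passed as lower with DESeq2's size factors, with only the 2 groups in the fit, with the stricter filter on low counts, and without GSK3326595 replicate 1.

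The promoters of several of these genes are shown because members of the lists moved together. They come from RefSeq (GRCm38.p6, which is older than the GRCm39 build of the deposited counts, so the coordinates were not converted). Each is the 250 bases before the start site, 5′ to 3′ on the gene's strand, for members that were called, hold a match and were chosen after their values were seen. Capitals mark the core of the interferon-stimulated response element, searched as GAAA, any 2 bases and GAAA on either strand. Where 2 or 3 matches overlap, the capitals run together.
Tgtp1 (chr11:48992247-48992496, strand -): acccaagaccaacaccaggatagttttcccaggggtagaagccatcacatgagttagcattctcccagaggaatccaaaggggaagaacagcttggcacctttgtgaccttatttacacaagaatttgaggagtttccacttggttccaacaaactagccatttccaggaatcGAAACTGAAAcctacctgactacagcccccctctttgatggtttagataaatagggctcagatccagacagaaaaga
Gbp3 (chr3:142559794-142560043, strand +): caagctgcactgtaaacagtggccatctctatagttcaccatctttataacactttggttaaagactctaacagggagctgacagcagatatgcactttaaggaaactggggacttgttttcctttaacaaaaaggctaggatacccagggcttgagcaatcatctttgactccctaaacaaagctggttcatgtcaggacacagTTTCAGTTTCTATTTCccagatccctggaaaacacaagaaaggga
Oas3 (chr5:120777660-120777909, strand -): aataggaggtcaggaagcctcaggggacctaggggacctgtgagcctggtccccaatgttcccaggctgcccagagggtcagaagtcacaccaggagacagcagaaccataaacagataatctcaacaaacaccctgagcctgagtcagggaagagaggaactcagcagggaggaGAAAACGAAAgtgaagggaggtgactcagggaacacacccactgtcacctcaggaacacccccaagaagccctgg
Bst2 (chr8:71537473-71537722, strand -): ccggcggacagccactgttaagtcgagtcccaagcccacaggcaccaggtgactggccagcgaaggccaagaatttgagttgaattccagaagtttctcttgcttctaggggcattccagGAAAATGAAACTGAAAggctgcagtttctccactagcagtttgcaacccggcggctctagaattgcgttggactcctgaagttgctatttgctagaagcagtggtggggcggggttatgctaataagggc
Isg15 (chr4:156200819-156201068, strand -): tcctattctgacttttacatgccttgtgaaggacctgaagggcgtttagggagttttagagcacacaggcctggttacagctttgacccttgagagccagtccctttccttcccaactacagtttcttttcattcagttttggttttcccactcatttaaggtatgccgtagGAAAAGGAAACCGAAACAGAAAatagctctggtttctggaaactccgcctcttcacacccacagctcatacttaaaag
B2m (chr2:122147437-122147686, strand +): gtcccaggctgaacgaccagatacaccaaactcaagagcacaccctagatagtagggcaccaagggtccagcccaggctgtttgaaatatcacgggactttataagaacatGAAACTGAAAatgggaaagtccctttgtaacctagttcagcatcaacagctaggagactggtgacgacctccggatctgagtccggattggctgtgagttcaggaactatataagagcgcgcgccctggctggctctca

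The first base of the match lies 77 bases before the start in Tgtp1, 45 in Gbp3, 75 in Oas3, 130 in Bst2, 78 in Isg15 and 139 in B2m. Gbp3 and Bst2 hold 2 overlapping matches and Isg15 holds 3. Oas3 was higher with MRTX1719 by 0.74 ± 0.031 and Isg15, the ubiquitin-like modifier, by 0.66 ± 0.032. Over windows of 250 bases before to 50 bases after a start, 1079 of 27025 genes in the table (3.99%) hold a match. The share was 9 of 10 (90%) among the interferon GTPases found in the table, 14 of 35 (40%) among the effectors, 5 of 15 (33.3%) among the sensors and 3 of 9 (33.3%) among the class I chains. It was 2 of 11 (18.2%) among the class I processing genes and 2 of 17 (11.8%) among the interferon factors and receptors. In lists that were lower, it was 4 of 19 (21.1%) among ribosomal protein genes, 1 of 16 (6.25%) in cholesterol synthesis and 1 of 27 (3.7%) in mitosis. It was 105 of 1774 (5.92%) over all genes higher with MRTX1719, 62 of 1678 (3.69%) over all genes lower and 391 of 10299 (3.8%) over all genes tested. Windows of Irf7, Herc6, Ifi44 and H2-D1 hold no match. These are letters in a window and not measured binding.

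MHC class I molecules show peptides of a tumour cell to CD8 T cells. Of 10 class I chains tested, 7 were higher with MRTX1719 and 0 lower, with a median log2 fold change of 0.640. H2-D1, a classical heavy chain, read 795, 791 and 803 CPM with GSK3326595, 1400.3 and 1357 CPM with MRTX1719 and 1725, 1658 and 1657 CPM with DMSO. The MRTX1719 libraries lay between the other groups and overlapped neither. Against GSK3326595 the fold was 1.73 (log2 fold change 0.79 ± 0.021, adjusted p = 5.12e-64, the smallest of all genes). B2m, the light chain that every class I molecule needs, read 829, 827 and 827 CPM with GSK3326595 and 1186 and 1239 CPM with MRTX1719 (0.55 ± 0.021, adjusted p = 1.49e-52). With DMSO it was at 1451, 1453 and 1427 CPM, again above both inhibitors. H2-K1, the other classical chain, was higher by 0.67 ± 0.035 (adjusted p = 6.64e-11), the non-classical H2-Q4 by 0.75 ± 0.027 and H2-T24 by 1.10 ± 0.14. Reads of class I heavy chains may be shared between these similar genes.

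Of 14 genes that process peptides for class I, 10 were higher and 2 lower, with a median of 0.172. Psmb9, an immunoproteasome subunit, read 20.1, 21.8 and 22.03 CPM with GSK3326595 and 37.2 and 35.6 CPM with MRTX1719, which is 1.71-fold (0.77 ± 0.058, adjusted p = 2.64e-24). Tap1, a subunit of the peptide transporter, was at 93.8, 90.7 and 94.1 CPM and 138 and 143 CPM (0.60 ± 0.032, adjusted p = 4.64e-36). Psmb8 (0.40 ± 0.030) and the peptide editor gene Tapbpl (0.44 ± 0.067) were higher as well. Nlrc5, the transactivator of class I genes, was at 77.1, 81.4 and 82.3 CPM and 89.9 and 90.6 CPM (0.17 ± 0.036, adjusted p = 7.24e-05). The lower pair was Canx (-0.18 ± 0.020), a chaperone of the endoplasmic reticulum, and Psme1 (-0.15 ± 0.030), a proteasome activator, both named after their values were seen.

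**Figure D2:**
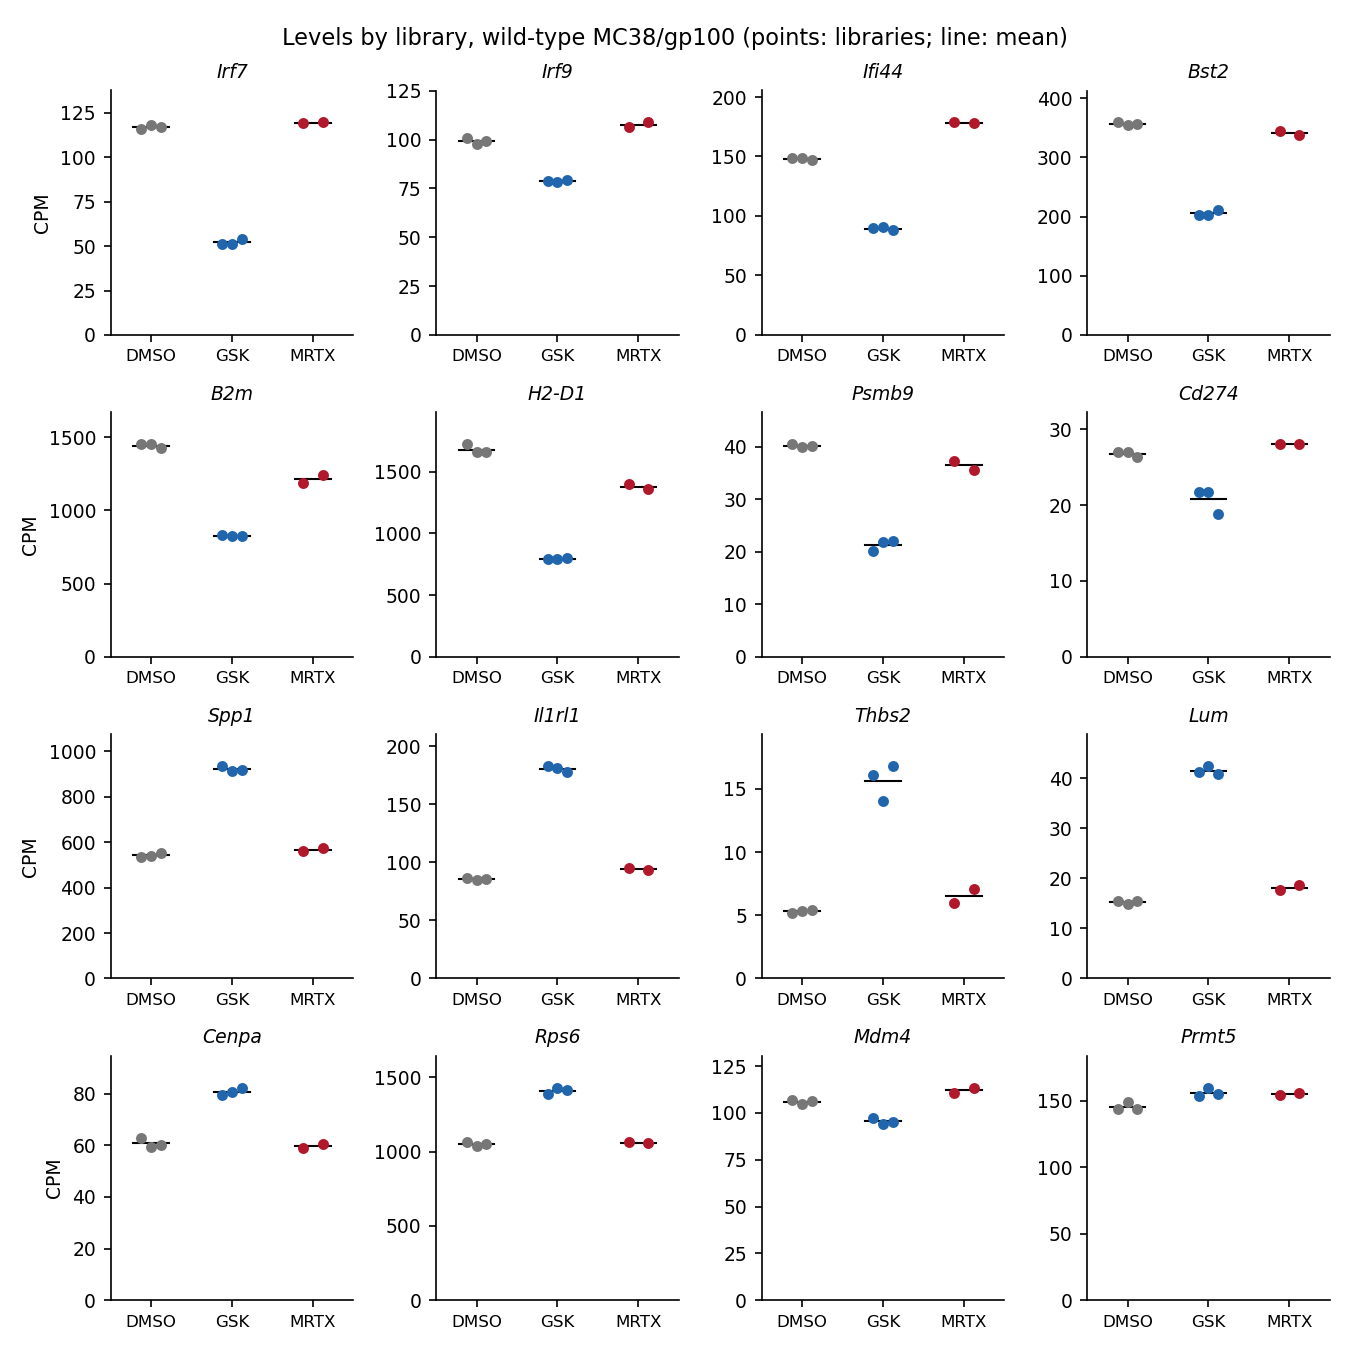
Levels of 16 genes in CPM on axes that start at 0, with a point per wild-type library and a line at the group mean (DMSO grey, n = 3; GSK3326595 blue, n = 3; MRTX1719 red, n = 2). In Irf7, Bst2 and Psmb9 the GSK3326595 libraries lie below both other groups, in Spp1, Il1rl1, Lum and Rps6 above both, and for Prmt5 the MRTX1719 points fall among those of GSK3326595.

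Other surface and secreted molecules that T cells and myeloid cells read split in both directions. Of 13 checkpoint ligands, 3 were higher and 3 lower with MRTX1719. Cd274, which encodes PD-L1, was at 21.8, 21.7 and 18.9 CPM with GSK3326595 and at 28.1 and 28.0 CPM with MRTX1719 (0.43 ± 0.063, adjusted p = 6.03e-09). Lgals9 (0.26 ± 0.028), for galectin-9, and Cd276 (0.23 ± 0.038), for B7-H3, were higher too. The lower ones were rare RNAs. Entpd1, the ectonucleotidase CD39, had 0 counts with MRTX1719, which allows up to 0.0567 CPM, beside 0.115, 0.115 and 0.111 CPM with GSK3326595. Nt5e, for CD73, read 0.423, 0.654 and 0.627 CPM against 0.113 and 0.151 CPM (-2.06 ± 0.54), and Ceacam1 differed by -0.93 ± 0.28. Entpd1 and Nt5e were named after their values were seen. Only 1 of the 3 lower calls was left without MRTX1719 replicate 1, and 0 under the stricter filter on low counts. Among 8 NKG2D ligands and death receptors 2 were higher and 0 lower, the larger being Ulbp1, a ligand of the NK cell receptor NKG2D, at 35.1, 35.8 and 37.8 CPM against 54.4 and 53.7 CPM (0.57 ± 0.046, adjusted p = 2.51e-22).

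Among 25 chemokines and cytokines, 6 were higher and 6 lower. Cxcl11, which draws T cells through CXCR3, read 2.81, 3.16 and 3.36 CPM with GSK3326595 and 5.59 and 5.22 CPM with MRTX1719 (0.80 ± 0.15, adjusted p = 1.02e-05). Its relative Cxcl10, named after its value was seen, was at 327, 320.2 and 316 CPM and 429 and 450.0 CPM (0.45 ± 0.025, adjusted p = 3.01e-36), so that both groups were apart. Ccl2, a monocyte chemokine, was lower, at 473, 476 and 471 CPM with GSK3326595 and at 332 and 332 CPM with MRTX1719 (-0.51 ± 0.023, adjusted p = 1.38e-43). Ccl9, of the same family, read 3.54, 2.93 and 3.10 CPM against 0.982 and 1.10 CPM (-1.61 ± 0.20, adjusted p = 6.64e-12). Csf2, for GM-CSF, differed by -0.91 ± 0.22, and Hgf by -0.87 ± 0.21, the latter not passing without MRTX1719 replicate 1. Csf1, for the macrophage growth factor and named after its value was seen, was higher, at 0.24 ± 0.022.

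The 5 genes with the smallest adjusted p among those lower with MRTX1719 were Spp1, Il1rl1, Angptl7, Ccl2 and Ptgs2. Spp1, the matrix protein osteopontin, read 936, 915 and 918 CPM with GSK3326595, 560.0 and 575 CPM with MRTX1719 and 534, 541 and 552 CPM with DMSO. All MRTX1719 libraries were below all GSK3326595 libraries and somewhat above those with DMSO. Its level was 1.63-fold higher with GSK3326595 (log2 fold change -0.70 ± 0.022, adjusted p = 1.56e-61). Il1rl1, the receptor of interleukin 33, was at 183, 182 and 178 CPM and 94.9 and 93.5 CPM (-0.94 ± 0.030, adjusted p = 2.97e-60). Angptl7, an angiopoietin-like secreted protein, was at 147, 144 and 142 CPM and 78.8 and 77.1 CPM (-0.89 ± 0.030, adjusted p = 2.28e-58). Ptgs2, the inducible cyclooxygenase that makes prostaglandins, read 586, 576 and 573 CPM against 415 and 411 CPM (-0.49 ± 0.024, adjusted p = 8.87e-41). With DMSO it lay at 420.3, 412 and 421 CPM, so the MRTX1719 libraries overlapped those without inhibitor.

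Matrix and mesenchymal genes changed in both directions, 12 higher and 19 lower of 46, with a median of -0.0954. Lum, the collagen-binding proteoglycan lumican, read 41.1, 42.4 and 40.7 CPM with GSK3326595 against 17.6 and 18.7 CPM with MRTX1719 and 15.4, 14.9 and 15.4 CPM with DMSO (-1.19 ± 0.061, adjusted p = 1.41e-38). Thbs2, a thrombospondin that restrains angiogenesis, was at 16.1, 14.0 and 16.8 CPM and 5.97 and 7.08 CPM (-1.26 ± 0.094, adjusted p = 1.24e-24). The collagenase gene Mmp13 (-1.68 ± 0.34) and the stromelysin gene Mmp10 (-1.42 ± 0.23) were lower from levels under 3 CPM. Abi3bp, an extracellular matrix protein, had the largest positive fold of the named genes, at 0.500, 0.539 and 0.738 CPM with GSK3326595 and 1.81 and 2.23 CPM with MRTX1719 (1.76 ± 0.28, adjusted p = 6.72e-08). Of 12 fibroblast and endothelial markers, whose levels summed to 2250 to 2260 CPM with GSK3326595 and to 2000 to 2010 CPM with MRTX1719, 1 was higher and 5 were lower, among them Dcn, for decorin, at 609.6, 604 and 599 CPM against 446 and 464 CPM (-0.41 ± 0.022, adjusted p = 3.01e-36), and the angiopoietin gene Angpt2 (-1.63 ± 0.33). The median log2 fold change of these 12 markers was -0.414. The higher marker, Fap, named after its value was seen, did not pass without GSK3326595 replicate 2 or MRTX1719 replicate 1. It was also not called with DESeq2's Wald test or with the stricter filter on low counts. Whether a shift in such cells had a part in the matrix genes was not tested. Of the epithelial list 1 was higher and 2 lower of 11 tested. The higher, Tjp1, did not pass with DESeq2's Wald test, when any single GSK3326595 library was left out, or without MRTX1719 replicate 3. The lower ones were led by the keratin gene Krt8 at 37.6, 37.5 and 39.4 CPM against 24.4 and 23.6 CPM (-0.67 ± 0.054, adjusted p = 7.85e-22).

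Outside these lists, the genes with the largest differences were mostly of low level. Higher with MRTX1719 were Cd46, a complement regulator (1.63 ± 0.33), the interferon-induced Ifit1bl2 (1.40 ± 0.27), the opsin gene Opn3 (1.34 ± 0.29), the B cell factor gene Pax5 (1.09 ± 0.15) and the long non-coding RNAs H19 (1.29 ± 0.30) and Eldr (1.02 ± 0.22). H19 rested on a single library: it read 2.34 and 0.946 CPM in MRTX1719 replicates 1 and 3 against 0.847, 0.539 and 0.627 CPM with GSK3326595, and did not pass without replicate 1. Lower were Ly6g, a surface protein best known from neutrophils (-1.76 ± 0.22), the muscle acetylcholine receptor gene Chrna1 (-1.72 ± 0.32), the complement inhibitor gene Serping1 (-1.67 ± 0.30), Alox5ap, which serves leukotriene synthesis (-1.54 ± 0.28), the Mediator gene Med12l (-1.52 ± 0.28), the interleukin 36 receptor gene Il1rl2 (-1.48 ± 0.33) and the fatty acid-binding Fabp4 (-1.45 ± 0.19). Ly6g stood at 4.27, 3.81 and 3.69 CPM with GSK3326595 against 1.21 and 1.10 CPM, with no overlap (adjusted p = 2.93e-11).

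Cell cycle genes divided by phase. Of 41 DNA replication genes, 18 were higher with MRTX1719 and 0 lower (1 without GSK3326595 replicate 2), with a median log2 fold change of 0.0745, and of 30 genes for homologous recombination and the Fanconi pathway 9 were higher and 0 lower, with a median of 0.117. E2f1, the factor that opens S phase, read 30.1, 28.3 and 30.3 CPM with GSK3326595 and 39.0 and 40.0 CPM with MRTX1719 (0.42 ± 0.053, adjusted p = 4.99e-11). Cdc6, which loads the replicative helicase (0.32 ± 0.041), and E2f2, of the E2F family of factors (0.40 ± 0.071), were higher too. In recombination, Brca2 was at 58.4, 60.2 and 56.4 CPM and 75.8 and 75.0 CPM (0.37 ± 0.040, adjusted p = 3.82e-14). The exonuclease gene Exo1 (0.41 ± 0.049) and Fanci (0.41 ± 0.068) had the largest differences of that list. Mitotic genes went the other way, with 0 of 32 higher (1 without GSK3326595 replicate 2, with the replicate block or with only the 2 groups in the fit) and 22 lower, and a median of -0.146. Cenpa, the histone of centromeres, was at 79.6, 80.6 and 82.3 CPM with GSK3326595 and 59.1 and 60.3 CPM with MRTX1719 (-0.44 ± 0.038, adjusted p = 2.13e-19). For Plk1, the polo-like kinase of mitosis, the levels were 32.6, 31.3 and 33.0 CPM and 24.2 and 24.3 CPM (-0.41 ± 0.054, adjusted p = 1.87e-10). Ccnb2 (-0.41 ± 0.039), a mitotic cyclin, and Cdc20 (-0.38 ± 0.038), an activator of the anaphase-promoting complex, were lower as well. In all 4 the groups were apart, as the rule for naming them required.

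Histone genes were lower where they passed, 5 of 10 that are known to make polyadenylated RNA, such as H2bc4 (-0.69 ± 0.054) and H2ax (-0.29 ± 0.046), and 4 of 16 replication-dependent genes. The latter lack a poly(A) tail and are poorly caught by poly(A) libraries. Their count was 0 without GSK3326595 replicate 3, without MRTX1719 replicate 3 or under the stricter filter.

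Lists for growth and metabolism had more genes lower than higher with MRTX1719. Of 28 ribosomal protein genes, 22 were lower and 0 higher, with a median of -0.196. Rps6, of the small subunit, read 1387, 1431 and 1414 CPM with GSK3326595 and 1063 and 1059 CPM with MRTX1719, beside 1065, 1040.2 and 1049 CPM with DMSO (-0.41 ± 0.020, adjusted p = 5.36e-40). Rpl18 (-0.41 ± 0.030) and Rpl15 (-0.32 ± 0.022), of the large subunit, followed, and reads of such genes may be shared with their many pseudogenes. In ribosome biogenesis, 2 of 30 were higher and 8 lower, beside 684 higher and 608 lower of 2360 among all genes at 100 CPM or more. Its share of lower calls was thus near that of abundant genes. Npm1, the nucleolar chaperone nucleophosmin, was at 3141, 3129 and 3081 CPM against 2493 and 2519.6 CPM (-0.31 ± 0.018, adjusted p = 3.68e-33). Myc, a driver of that list, differed by -0.08 ± 0.027 (adjusted p = 0.0242), its groups overlapped, and it did not pass with no filter, without GSK3326595 replicate 3 or without MRTX1719 replicate 1. Of 22 cholesterol synthesis genes, 12 were lower and 0 higher, and 7 were lower without MRTX1719 replicate 1. Dhcr7, which makes the last step to cholesterol, was at 18.9, 18.1 and 16.9 CPM and 13.6 and 13.5 CPM (-0.40 ± 0.074, adjusted p = 2.77e-06), and Fdps, for farnesyl diphosphate, at 50.8, 51.1 and 53.2 CPM and 38.7 and 39.6 CPM (-0.40 ± 0.050, adjusted p = 7.89e-10). Of 21 glycolysis genes 11 were lower and 1 higher, including Gapdh (-0.23 ± 0.020), Tpi1 (-0.25 ± 0.023) and the phosphofructokinase gene Pfkm (-0.25 ± 0.048).

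PRMT5 loss is known to raise p53 activity through missplicing of Mdm4, the p53 inhibitor. Mdm4 RNA was at 97.2, 93.9 and 95.2 CPM with GSK3326595 and at 111 and 113 CPM with MRTX1719, beside 107, 105 and 107 CPM with DMSO. The groups were apart (0.23 ± 0.034, adjusted p = 1.18e-08), and gene counts do not show its splicing. Trp53 itself had a log2 fold change of -0.07 ± 0.030 (95% interval -0.13 to -0.01, adjusted p = 0.0807). It passed as lower with the stricter filter and with only the 2 groups in the fit. Of 31 p53 targets, 4 were higher and 7 lower, with a median of -0.0424. Cdkn1a, the cell cycle inhibitor p21, was slightly higher at 40.3, 40.0 and 41.9 CPM against 45.2 and 44.4 CPM (0.14 ± 0.048, adjusted p = 0.0207). That call was lost with DESeq2's Wald test and without GSK3326595 replicate 1 or 2 or either MRTX1719 library. Gadd45a, of the DNA damage response, was lower (-0.31 ± 0.031, adjusted p = 7.98e-16), as was Sesn1 (-0.34 ± 0.092), which did not pass without MRTX1719 replicate 3. Of 21 apoptosis regulators 5 were higher and 2 lower. The 5 became 2 without MRTX1719 replicate 1, and 3 without replicate 3 or without GSK3326595 replicate 3. The 2 lower became 1 without MRTX1719 replicate 1 or GSK3326595 replicate 2. Of 30 splicing factors 9 were higher and 7 lower, from Srsf10 (0.25 ± 0.026) to the kinase gene Clk2 (-0.28 ± 0.046), and without MRTX1719 replicate 1 the counts were 5 higher and 6 lower.

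Stress lists were mixed. Of 28 targets of ATF4, the factor of the amino acid response, 8 were higher and 12 lower. The formyltetrahydrofolate enzyme gene Aldh1l2 was higher at 136, 137 and 136 CPM against 181 and 186 CPM (0.43 ± 0.031, adjusted p = 1.28e-25), and Chac1, which degrades glutathione, was lower at 44.8, 43.6 and 44.6 CPM against 36.4 and 34.5 CPM (-0.32 ± 0.050, adjusted p = 5.02e-08). In the unfolded protein response 4 of 16 were higher and 3 lower, the largest being the disulfide isomerase gene Pdia4 (-0.33 ± 0.027). Among genes that handling can move, 7 of 22 immediate early genes were higher and 8 lower, from Egr3 (0.35 ± 0.068) to the phosphatase gene Dusp1 (-0.57 ± 0.032, adjusted p = 8.69e-35). Of 15 heat shock genes 5 were higher and 3 lower, such as the chaperone gene Hsph1 (0.26 ± 0.026). Of 13 nuclear retained RNAs 3 were higher and 4 lower, led by the snoRNA host Snhg8 (-0.56 ± 0.044, adjusted p = 4.36e-23), and 1 was higher without MRTX1719 replicate 1. What part handling had in other lists was not tested. Of the melanosome antigens only Pmel and Mitf were tested, and Pmel, the mouse gene for gp100, was at 1.77, 1.81 and 1.48 CPM against 1.25 and 1.36 CPM, with an interval of -0.84 to 0.10 (adjusted p = 0.260).

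**Figure D3:**
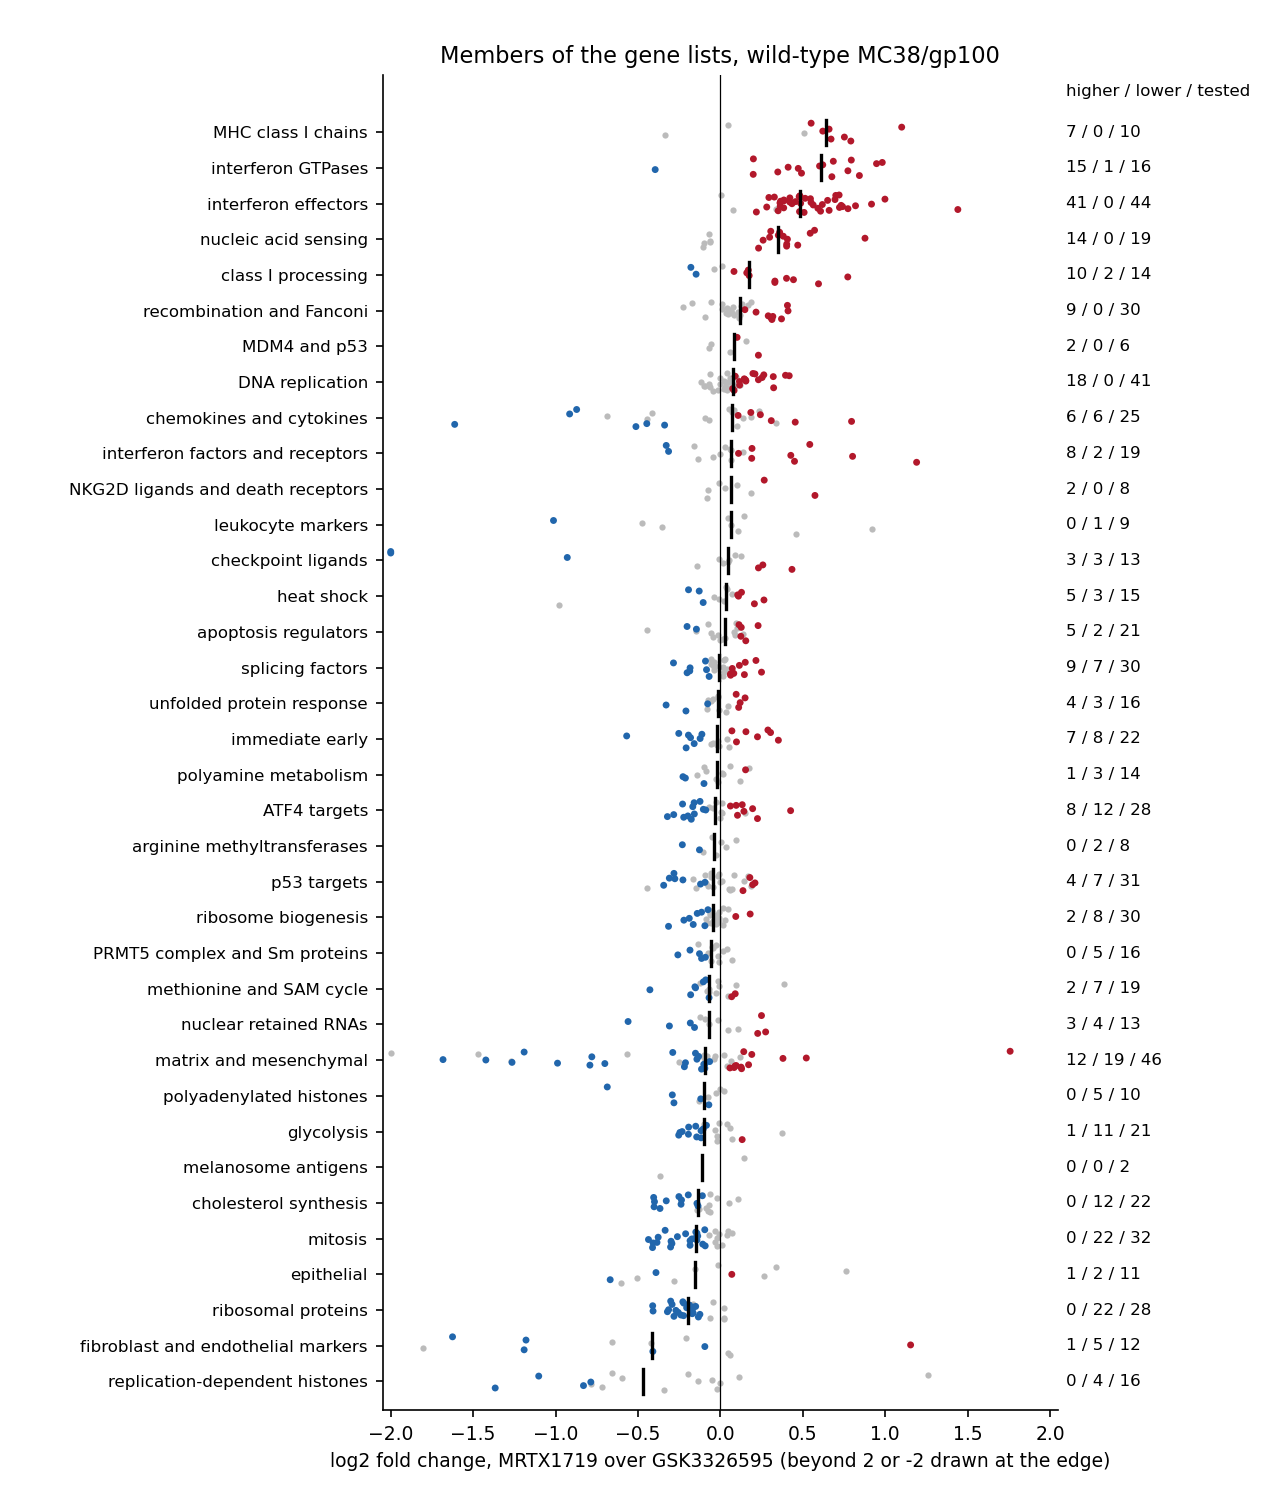
Each point is a tested gene of a list, placed by its log2 fold change of MRTX1719 over GSK3326595 in wild-type cells. Red points were higher, blue lower, grey did not pass, and the black bar is the list's median, with the counts of higher, lower and tested genes at the right. Class I chains, interferon GTPases and interferon effectors sit furthest to the right. Replication-dependent histones (median -0.468, low levels) and fibroblast and endothelial markers (-0.414) lie furthest to the left, followed by ribosomal protein, epithelial, mitosis and cholesterol genes.

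Levels with DMSO place these differences. The contrasts against DMSO share libraries with the one between the inhibitors, so they are not independent of it and are given side by side. GSK3326595 changed 6102 genes against DMSO, 2977 higher (20.1%) and 3125 lower (21.1%), of which 344 by at least 2-fold. MRTX1719 changed 1117, 537 higher (3.62%) and 580 lower (3.91%), of which 18 by at least 2-fold. The count of 1117 became 433 without MRTX1719 replicate 1 and 510 without replicate 3. Of the 44 interferon effectors, 0 were higher and 38 lower with GSK3326595 (median -0.391), and 15 were higher and 0 lower with MRTX1719 (median 0.0996). Irf7 differed from DMSO by -1.16 ± 0.033 with GSK3326595 and by 0.03 ± 0.033 with MRTX1719, an interval of -0.04 to 0.09 that holds 0 (adjusted p = 0.710). Irf9 differed by -0.33 ± 0.031 with GSK3326595 and was higher by 0.12 ± 0.033 with MRTX1719 (adjusted p = 0.0123). In the class I chains 7 were lower with GSK3326595 (median -0.843) and 5 with MRTX1719 (median -0.159), and none was higher with either. H2-D1 differed by -1.08 ± 0.019 and by -0.29 ± 0.021, and B2m by -0.80 ± 0.019 and by -0.25 ± 0.021. Ribosomal protein genes had 22 higher and 1 lower with GSK3326595, and 0 higher and 3 lower with MRTX1719. DNA replication genes had 2 higher and 26 lower with GSK3326595, and 0 higher and 5 lower with MRTX1719. Recombination and Fanconi genes had 2 higher and 16 lower with GSK3326595, and 0 higher and 2 lower with MRTX1719. Mitotic genes had 14 higher and 5 lower with GSK3326595, but 0 higher and 17 lower with MRTX1719. Plk1 was higher by 0.18 ± 0.048 with GSK3326595 and lower with MRTX1719 at -0.23 ± 0.056. Spp1 was higher by 0.77 ± 0.019 with GSK3326595 and by 0.07 ± 0.022 with MRTX1719.

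The Mtap KO line asks whether the inhibitors differ in the same way where MTA is not cleared by Mtap. Mtap RNA is not a full check of that label, since whole-gene counts gave 236, 251 and 249.8 CPM with GSK3326595 in the KO libraries, beside 417, 421 and 418 CPM in wild-type cells. In KO cells 7889 genes differed between the inhibitors, 4201 higher (28.3%) and 3688 lower (24.9%) with MRTX1719. No library is shared with the wild-type contrast. Of the 4454 wild-type calls 2999 were also called in KO cells, which is 67.3% of the wild-type and 38% of the KO calls. Of these 2999, 1336 went the same way and 1663 the opposite way. Across the 14835 genes the log2 fold changes of the contrasts had a Pearson r of -0.129 and a Spearman rho of -0.0978, given as a description across genes, which are not independent. The difference between the lines was itself tested and passed at 6870 genes, 3277 higher (22.1%) and 3593 lower (24.2%) in wild-type than in KO cells. It passed at 3105 of the wild-type calls, including all 1663 with opposite signs.

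Irf7 showed such a difference. It read 47.8, 45.0 and 47.5 CPM with GSK3326595 and 47.5, 46.9 and 45.3 CPM with MRTX1719 in KO cells, so the KO groups overlapped and lay a little below the wild-type GSK3326595 libraries. The 95% interval of the KO log2 fold change was -0.08 to 0.07 (adjusted p = 0.941) and the difference between lines 1.19 ± 0.054 (adjusted p = 1.16e-44). Of the 44 interferon effectors 27 were higher and 6 lower in KO cells (median 0.157), and 35 differed upwards and 1 downwards between lines. Of the class I chains 1 was higher and 6 lower in KO cells (median -0.116), and 7 of 10 differed between lines. H2-D1 was -0.12 ± 0.021 in KO cells (difference 0.91 ± 0.030, adjusted p = 6.41e-56), and H2-K1 was -0.29 ± 0.036 (difference 0.96 ± 0.050, adjusted p = 2.23e-11). Mean H2-D1 in KO cells was 785.7 CPM with DMSO, 453.6 with GSK3326595 and 416.3 with MRTX1719. Mitotic genes gave 16 higher and 5 lower in KO cells, beside 0 and 22 in wild-type cells, and 24 of 32 were lower in the test of the difference. Plk1 was higher with MRTX1719 in KO cells, at 96.8, 91.2 and 97.3 CPM with GSK3326595 and 114, 120.2 and 116 CPM with MRTX1719 (0.30 ± 0.032), and lower in wild-type cells. Of the ATF4 targets 26 of 28 were higher in KO cells, with 22 lower in the test of wild-type minus KO. Of the ribosomal protein genes 25 of 28 were lower and 0 higher in KO cells, and the test of wild-type minus KO called 15 lower and 5 higher.

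The 8 named genes with the smallest adjusted p of the difference between lines were Hspg2, Ddx17, Spp1, Il1rl1, Col6a1, Lrp1, Col6a2 and Ptgs2. Hspg2, the basement membrane proteoglycan perlecan, was slightly higher with MRTX1719 in wild-type cells (0.27 ± 0.022) and much lower in KO cells, at 699, 663 and 665 CPM with GSK3326595 and 319.8, 308 and 309 CPM with MRTX1719 (-1.11 ± 0.021). The difference was 1.39 ± 0.030 (adjusted p = 3.24e-81). The helicase gene Ddx17 (0.33 ± 0.023 in wild-type, -0.84 ± 0.022 in KO), the endocytic receptor gene Lrp1 (0.29 ± 0.021 and -0.63 ± 0.019) and the collagen VI genes Col6a1 (0.04 ± 0.021 and -0.89 ± 0.019) and Col6a2 (0.09 ± 0.022 and -0.88 ± 0.020) shared that shape, Col6a1 without passing in wild-type cells. Spp1, Il1rl1 and Ptgs2 turned the other way. Spp1 was lower with MRTX1719 in wild-type cells and higher in KO cells, at 912, 969 and 954 CPM with GSK3326595 and 1188, 1184 and 1204 CPM with MRTX1719 (difference -1.03 ± 0.029, adjusted p = 1.73e-67). For Il1rl1 the difference was -1.31 ± 0.037 and for Ptgs2 -1.02 ± 0.033. Mdm4 was lower with MRTX1719 in KO cells (-0.45 ± 0.037) and Cdkn1a higher (0.78 ± 0.055), and both differed between lines (adjusted p = 6.02e-25 and 1.6e-13). Lum and Dcn were lower with MRTX1719 in both lines, with KO log2 fold changes of -1.44 ± 0.074 and -0.48 ± 0.019.

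**Figure D4:**
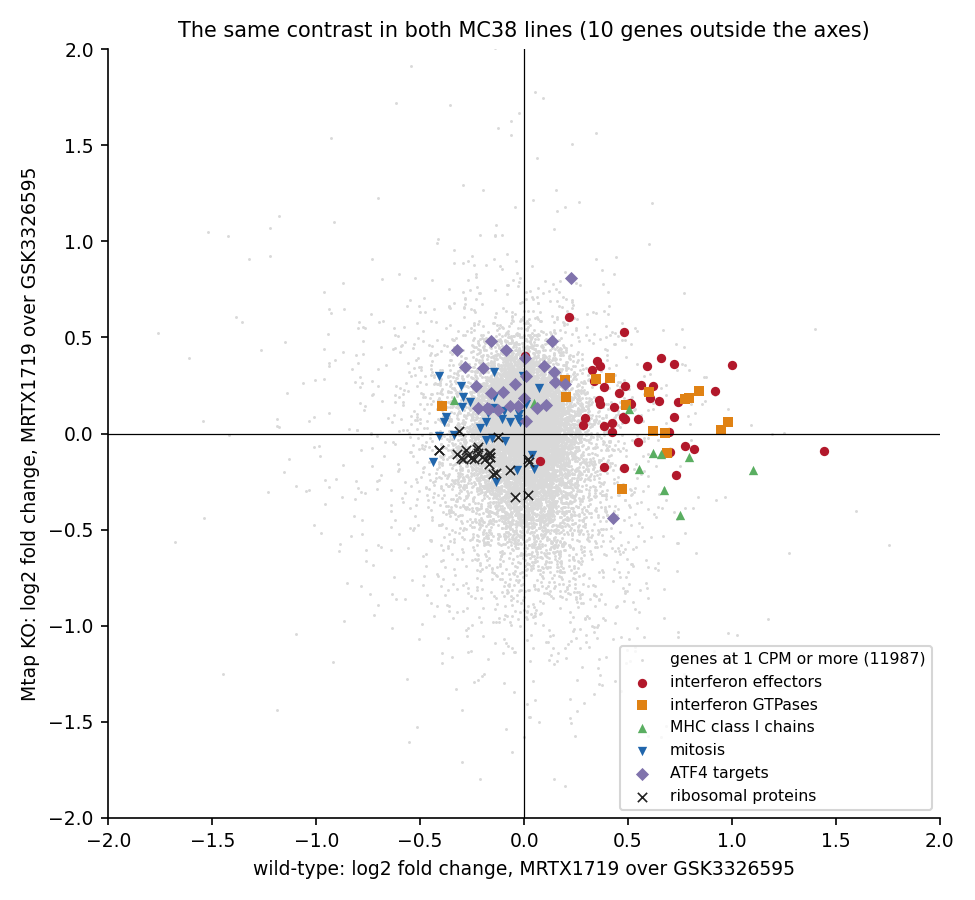
Each grey point is 1 of 11987 genes at 1 CPM or more, placed by its log2 fold change of MRTX1719 over GSK3326595 in wild-type cells (horizontal) and in Mtap KO cells (vertical). Coloured symbols mark 6 gene lists, and 10 genes lie outside the axes. Interferon effectors and GTPases lie to the right and class I chains to the lower right, while mitotic genes and ATF4 targets lie mostly at or above 0 on the KO axis.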

How the data were processed

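Poly(A) RNA of 17 MC38/gp100 libraries was analysed. The authors deposited raw counts per gene, whole numbers with no normalization, and a normalized signal, which was tested to equal the counts divided by 1 size factor per library within 1e-06. It served only to tie symbols to identifiers (15629 of 15629 entries, and 4144 identifiers stayed unnamed). The genome build was GRCm39 (mm39) and the tools were Bowtie2 2.1.0, TopHat2 2.0.10 and DESeq 1.18.0, per the submitters' processing notes. Which program counted reads, on which annotation and with what strand setting, is not given in the sources used here. Reads of overlapping, antisense or near-identical genes may therefore be shared. T cell tables were not used.

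Counts were fitted in R 4.3.3 with edgeR 4.0.16, all 17 libraries in 1 fit with no covariate. Library sizes were scaled by TMM, low genes were removed with filterByExpr on the groups (14835 genes were left), and contrasts were tested by the quasi-likelihood F test with robust dispersions. Adjusted p-values are Benjamini-Hochberg over all of these, at 0.05. Fold changes are log2 with standard errors, and CPM divides counts by the TMM-scaled total and multiplies by 1e+06. There were 5 contrasts and 1 pair of compounds. DESeq2 1.42.0 served as an alternative. The scripts were tested on simulated data with known changes.

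Gene lists (36, with 769 symbols in the table) and the comparison were chosen with earlier results of these data known. Genes named were, past the threshold at 1 CPM or more in a group and without overlap between the inhibitors' libraries, the 10 largest in each direction, the 5 smallest p-values in each direction, up to 4 per list, the 8 smallest p-values of the difference between lines, and a fixed set around PRMT5, p53, interferon and class I. Alternatives were other scaling, DESeq2, other filters, only the groups compared, a replicate block and leaving out each library. Some genes that the rule names are not reported here.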

Additional observations from a re-analysis of the deposited data

Results flagged for a closer look

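The contrast of MRTX1719 over GSK3326595 differed between wild-type and KO cells by the interaction term of the edgeR fit (quasi-likelihood test, Benjamini-Hochberg adjustment) at 6870 of 14835 genes. Values are wild-type minus KO log2 fold changes. Above 0 were, among the interferon and class I genes, Irf7 at 1.19, H2-K1 at 0.96, H2-D1 at 0.91, B2m at 0.73, Cd274 at 0.31, Cgas at 0.30 and Nlrc5 at 0.19. The Cd274 difference did not pass without KO GSK3326595 replicate 2. Hspg2 at 1.39, Ddx17 at 1.176, Col6a2 at 0.97, Col6a1 at 0.93, Lrp1 at 0.92, Mdm4 at 0.68, Mat2a at 0.46 and Mtap at 0.20 were also above 0. Below 0 were Il1rl1 at -1.31, Spp1 at -1.03, Ptgs2 at -1.02, Cdkn1a at -0.64 and Sting1 at -0.28. Groups of 2 or 3 libraries are too small for a test of single outlying libraries.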

How the results depend on the processing

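No named gene's called log2 fold change turned sign under the alternatives run. Named genes in this section are those that the rule named, without those named after their values were seen. The balance of higher and lower genes did turn in mixed lists: splicing factors went from 9 higher and 7 lower to 5 and 6 without MRTX1719 replicate 1, chemokines and cytokines from 6 and 6 to 6 and 7 without GSK3326595 replicate 3, 5 and 6 with DESeq2's Wald test or 6 and 4 with the stricter filter, and checkpoint ligands from 3 and 3 to 3 and 0 with that filter. Of the counts of changed genes, the 174 that differed at least 2-fold between the inhibitors in wild-type cells became 89 with DESeq2's Wald test and 26 with the stricter filter, which tests fewer low genes. For the former the cause was not tested. Leaving out 1 library at a time gave 3044 to 3957 changed genes between the inhibitors in wild-type cells, 132 to 168 changed at least 2-fold, 7160 to 7527 in KO cells, 6033 to 6806 for the difference between lines, 5404 to 5496 for GSK3326595 against DMSO and 433 to 912 for MRTX1719 against DMSO. With the replicate number as a block, the counts were 4237, 168, 7813, 6727, 6023 and 1010 in the same order. No gene named by the rule changed its call there, while Gbp8, named after its value was seen, lost it. Deviations of same-numbered libraries from their group means correlated at -0.116 to 0.0643 over 40 pairs. Those of other numbers correlated at -0.112 to 0.184 over 80 pairs. The 2 wild-type MRTX1719 libraries deviate from their mean by equal and opposite amounts. Their correlations with the same-numbered GSK3326595 libraries, -0.001 and 0.00219, are therefore only a weak check of pairing in the main contrast. DESeq2's Wald test called 3595 genes between the inhibitors in wild-type cells. The contrast rests on 2 MRTX1719 libraries, and when either is left out the other is assumed to vary like the other groups. Leaving out a library ended the call in 47 of 795 refits of named genes, most of these without an MRTX1719 library. Of 2842 genes tested under 1 CPM, 44 were higher and 111 lower, 124 of them by at least 2-fold, with a median absolute log2 fold change of 1.33 among those that changed.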
